A study of Mus musculus with 4 samples.

Results

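The resident macrophages of the peritoneal cavity were followed through 7 transcripts, Gata6, Selp, Garnl3, Icam2, Prg4, Alox15 and Cxcl13, out of 32285 genes in the ascites matrix. The cells were chosen by other genes than these 7. A cell counted as macrophage-gated where the complement genes C1qa, C1qb and C1qc together gave at least 30 of every 10000 UMIs (unique molecular identifiers, counted transcripts). The gate took 1042 of 4368 kept ascites cells. UMIs of each gene were summed per mouse over the gated cells and over all kept cells.

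Ascites came from B6 mice bearing the BeCon tumour, which the series title places in ovarian cancer. The arms were 4 mice given YKL-05-099, a compound that inhibits salt-inducible kinases, and 4 mice given vehicle. All 8 carried the tumour, so no tumour-free peritoneum serves as a baseline, and the dose, schedule, age and sex of the mice are not given in the sources used here. The sort kept viable cells with both CD45 and MHC class I on their surface. Each mouse had its own hashtag antibody, and the mice shared 1 droplet library of 3' transcript ends. A second library held spleen and blood of 3 treated and 3 vehicle mice. The ascites library held 134034611 UMIs in 13688 barcodes. Of 11112 cells past quality limits, 4368 carried a single hashtag and were kept, while 4209 carried several and 2535 none, and 52 barcodes were shared with the other library. Of the cells past the quality limits and the gate, 1042 carried a single hashtag, 2125 several and 1965 none. Gated counts, shares and depths below therefore describe the kept cells, not all macrophages of a mouse.

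The normal peritoneal cavity holds a large population of self-renewing macrophages, set apart from smaller, monocyte-derived macrophages. Retinoic acid, supplied largely by mesothelial and stromal cells of the omentum and the cavity wall, induces in them the zinc finger transcription factor GATA6, which maintains much of their tissue-specific programme. Loss of Gata6 in mouse myeloid cells reduces the expression of several of the other genes followed here. The members are grouped below as the transcription factor, the surface and signalling genes, and the secreted products and the lipid enzyme.

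In GRCm38 (the mm10 build that the submitters' processing notes name), GENCODE vM21 places Gata6 on chromosome 18 at 11052064 to 11085635 on the plus strand. Selp lies on chromosome 1 at 164115264 to 164150026 (plus), and Prg4 on the same chromosome at 150449412 to 150466165 (minus). Garnl3 spans chromosome 2 from 32986224 to 33131654 (minus), and Cxcl13 chromosome 5 from 95956951 to 95961068 (plus). Chromosome 11 holds both Alox15, at 70344152 to 70352031, and Icam2, at 106377656 to 106388075, each on the minus strand. The annotation has Tpr overlapping Prg4 and the noncoding genes Gm16587 and Gm16548 overlapping Selp, each on the opposite strand. Gm38299 overlaps Garnl3 on the same strand, where strand cannot separate reads, and it is no feature of the count matrix. Whether the counting used strand is not given, so reads in those overlaps cannot be told apart. The noncoding gene 1010001N08Rik, opposite Gata6, had 0 UMIs in the kept cells.

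RefSeq's promoter table (GRCm38.p6) holds 3 of the 7 members, Selp, Garnl3 and Cxcl13, and they are shown because GATA6 binds the core letters GATA. Gata6, Icam2, Prg4 and Alox15 are named only. Each run gives the 250 bases before the start, 5′ to 3′ on the gene's own strand, and capitals mark GATA on either strand and TATAAA. They lie at chr1:164115014-164115263 (plus) for Selp, chr2:33131437-33131686 (minus) for the upstream one of the Garnl3 starts, and chr5:95956689-95956938 (plus) for Cxcl13.

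Selp: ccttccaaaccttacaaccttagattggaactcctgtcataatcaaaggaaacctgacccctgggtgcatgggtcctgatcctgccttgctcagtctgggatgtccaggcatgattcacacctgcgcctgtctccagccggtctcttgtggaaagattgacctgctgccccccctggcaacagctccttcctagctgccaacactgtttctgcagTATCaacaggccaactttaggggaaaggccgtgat
Garnl3: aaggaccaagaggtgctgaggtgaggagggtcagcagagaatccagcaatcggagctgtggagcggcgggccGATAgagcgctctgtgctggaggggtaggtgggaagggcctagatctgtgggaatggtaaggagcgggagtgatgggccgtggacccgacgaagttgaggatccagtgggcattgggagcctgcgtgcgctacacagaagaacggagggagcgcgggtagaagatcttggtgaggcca
Cxcl13: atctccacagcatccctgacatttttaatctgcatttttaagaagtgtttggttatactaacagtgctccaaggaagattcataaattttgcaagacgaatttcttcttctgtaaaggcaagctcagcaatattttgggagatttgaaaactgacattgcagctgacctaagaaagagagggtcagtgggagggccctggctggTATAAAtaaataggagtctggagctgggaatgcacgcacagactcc

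The core GATA occurs once in the Selp window, on the minus strand with its leftmost base 35 bases before the start. It occurs once in the upstream Garnl3 window, on the plus strand 178 bases before the start. Neither the downstream Garnl3 window nor that of Cxcl13 holds it. Of 32851 promoter windows of this length in the table, 53.6% hold GATA on 1 or both strands, so its presence is common. The fuller GATA words were in none of these windows on either strand. They were AGATAA, in 9.99% of all windows, then TGATAA in 7.94%, then AGATAG in 7.71%, and lastly TGATAG in 6.35%, with at least 1 of them in 26.5%. The direct-repeat retinoic acid response element was also in none, and 3 of all windows hold it. The Cxcl13 window holds TATAAA at 46 bases before the start, as do 12.4% of all windows on either strand, and TATAAA was added to the search after the sequences were read.

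The label of the gene set was checked first, since the gate did not use the 7 genes. In 1 fit over the 8 mice, each of them was called higher in the gated cells than in the other cells. For Gata6, Selp, Garnl3 and Cxcl13 the vehicle mice carried this. Levels here are in CPM (UMIs of a gene per 1000000 UMIs of the summed cells). Pooled over treated mice, Gata6 was at 1.13 CPM in gated and 3.91 CPM in other cells. Selp was at 1.5 CPM in gated and 1.71 CPM in other treated cells. Garnl3 was at 1.5 CPM in gated and 1.3 CPM in other treated cells, and Cxcl13 at 2.26 and 2.12 CPM. Pooled over vehicle mice, Gata6 was at 22.8 CPM in gated and 2.60 CPM in other cells. Selp was at 57.7 CPM in gated and 5.12 CPM in other vehicle cells. Garnl3 was at 17.98 CPM in gated and 1.88 CPM in other vehicle cells, and Cxcl13 at 210.4 and 2.53 CPM. Prg4, Alox15 and Icam2 were higher in gated cells of treated mice too. They were at 20.3, 13.2 and 19.2 CPM there, against 8.24, 4.65 and 13.9 CPM in other treated cells. The log2 differences (edgeR quasi-likelihood test with the mouse as a block, Benjamini-Hochberg adjustment) were 5.21 ± 0.90 for Cxcl13, 4.86 ± 0.85 for Alox15 and 4.29 ± 0.87 for Prg4 (± SE), with adjusted p of 0.00153, 0.00167 and 0.00357. They were 2.56 ± 0.57 for Selp, 2.56 ± 0.39 for Garnl3, 2.10 ± 0.69 for Gata6 and 1.44 ± 0.34 for Icam2, with adjusted p of 0.00411, 1.8e-05, 0.026 and 0.00443. Of 10857 genes tested, 28.5% were called higher and 30.9% lower in gated cells. The 7 of 7 called are read against that share as a description. Gata6 missed the threshold in 3 of 8 alternatives, with adjusted p up to 0.0743, and Cxcl13 in 1 of 8, at 0.0577 with a gate of 60 per 10000.

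Per mouse, the gate held 101, 80, 92 and 91 cells in treated mice 1 to 4, against 158, 147, 167 and 206 cells in vehicle mice 1 to 4. These were 20.7% ± 5.80 of the kept cells in treated mice and 28.3% ± 4.85 in vehicle mice (SD, n = 4 each). The shares overlapped between the arms, and an exact two-sided permutation test gave p = 0.0857. The summed gated cells gave 535072 to 791886 UMIs per treated mouse and 1723386 to 3094491 UMIs per vehicle mouse. Treated gated cells were shallower, with median UMIs per cell of 4607, 1445, 6686 and 1194 in treated mice, against 12550, 11936, 14559 and 15628.5 in vehicle mice. A cluster of shallow cells, at a median of 666 UMIs, held 178 treated and 170 vehicle gated cells. Among gated cells of at least 3000 UMIs, the medians were 11509 to 13705 in treated mice and 15513.5 to 18210 in vehicle mice. The depths depended on the hashtag call. With cells assigned by the leading tag's share alone, the medians were 9616.5 to 13941 in treated and 15852 to 17098 in vehicle mice.

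Of 8 macrophage markers, C1qa, C1qb and C1qc define the gate and so check nothing, and the other 5, Adgre1, Csf1r, Mertk, Cd68 and Apoe, were detected in both arms. The summed level of the 8 was 15791 to 21520 CPM in treated mice, against 28048 to 34877 CPM in vehicle mice. Adgre1, the F4/80 antigen, was at 84.3 to 113 CPM in treated mice and 186 to 367 CPM in vehicle mice. Csf1r, the receptor of the macrophage growth factor CSF1, was at 297 to 375 CPM in treated mice, against 537 to 585 CPM in vehicle mice. Apoe, the most abundant of them, was at 7173 to 11202 CPM in treated mice and 16670 to 23096 CPM in vehicle mice. Cd68 overlapped between the arms, at 565 to 647 CPM in treated and 454 to 714 CPM in vehicle mice. Of the gate genes, C1qb overlapped too, at 3082 to 4012 CPM in treated and 3349 to 3851 CPM in vehicle mice. C1qa and C1qc were lower in treated mice without overlap. C1qa was at 2421 to 3001 CPM in treated and 3440 to 3883 CPM in vehicle mice. C1qc was at 1849 to 2136 CPM in treated and 2558 to 2761 CPM in vehicle mice.

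Gata6 was nearly absent from treated gated cells. It had 0, 0, 3 and 0 UMIs in treated mice 1 to 4, against 16, 16, 33 and 143 UMIs in vehicle mice 1 to 4. As levels these are 0, 0, 3.79 and 0 CPM in treated mice and 8.16, 9.28, 14.1 and 46.2 CPM in vehicle mice. The arms did not overlap, and vehicle mouse 4 stood well above the other vehicle mice. Over all mice of an arm the level was 1.13 CPM in treated and 22.8 CPM in vehicle cells, a ratio of 0.0495 (95% interval 0.0101 to 0.147, exact binomial, counting error only). The log2 difference was -4.10 ± 1.51, which did not pass the threshold across all genes (edgeR adjusted p = 0.139). DESeq2's Wald test gave an adjusted p of 0.00167 for the same difference.

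Among the surface and signalling genes, Selp encodes P-selectin, an adhesion molecule best known from platelets and endothelium that peritoneal macrophages of the mouse also express. It had 3, 0, 1 and 0 UMIs in treated gated cells, against 46, 26, 59 and 395 UMIs in vehicle ones. Levels were 0 to 3.83 CPM in treated mice and 15.1 to 128 CPM in vehicle mice, without overlap, and vehicle mouse 4 held the 128 CPM. The log2 difference was -4.99 ± 1.77 (edgeR adjusted p = 0.131). Without vehicle mouse 4 it was -3.73 ± 0.54 with an adjusted p of 2.9e-05, and DESeq2 gave an adjusted p of 0.000886 with all mice.

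Garnl3, which encodes a protein with a GTPase-activating domain of the Rap type, had 2, 0, 1 and 1 UMIs in treated gated cells and 18, 18, 21 and 107 UMIs in vehicle ones. Its levels were 0 to 2.55 CPM in treated mice, against 8.95 to 34.6 CPM in vehicle mice, again with no overlap and with vehicle mouse 4 highest. Between the arms Garnl3 differed by -3.39 ± 1.06 on the log2 scale (edgeR adjusted p = 0.073, DESeq2 adjusted p = 0.00284).

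Icam2 is a ligand of the integrin LFA-1 and a surface marker by which large peritoneal macrophages are sorted, and endothelium and lymphocytes carry it too. It had 17, 8, 20 and 6 UMIs in treated gated cells, or 21.7, 14.6, 25.3 and 11.2 CPM. Vehicle gated cells had 54, 50, 49 and 365 UMIs, or 27.6, 29.0, 20.9 and 118 CPM. The arms overlapped, since vehicle mouse 3 lay below treated mice 1 and 3. Icam2 differed by -1.41 ± 0.88 on the log2 scale (edgeR adjusted p = 0.371), and without vehicle mouse 4 it was -0.40 ± 0.26 (adjusted p = 0.361).

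The secreted products and the lipid enzyme fell in treated gated cells. Prg4 encodes lubricin, a lubricating proteoglycan of joints and serosal surfaces. It had 24, 5, 12 and 13 UMIs in treated mice, against 697, 1053, 870 and 6012 UMIs in vehicle mice. Levels were 30.6, 9.11, 15.2 and 24.3 CPM in treated mice and 356, 611, 371 and 1943 CPM in vehicle mice, so the arms lay far apart. The log2 difference was -5.33 ± 0.89 (edgeR adjusted p = 0.0124). It ranged from -5.68 to -4.43 when 1 mouse was left out, and the adjusted p reached 0.0517 without treated mouse 3.

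Alox15 encodes 12/15-lipoxygenase, which oxidizes arachidonic and related fatty acids in mouse peritoneal macrophages. Its UMIs were 3, 6, 21 and 5 in treated gated cells and 461, 446, 973 and 2499 in vehicle ones. Levels were 3.83, 10.9, 26.5 and 9.34 CPM in treated mice, against 235, 259, 415 and 808 CPM in vehicle mice. Treated mouse 3 was the highest of its arm, and 17 of its 21 UMIs came from 1 cell. The log2 difference was -5.02 ± 0.73 (edgeR adjusted p = 0.00762), and every alternative kept it past the threshold, with adjusted p of at most 0.0313.

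Cxcl13 encodes the chemokine that draws B cells through the receptor CXCR5. It had 2, 1, 2 and 1 UMIs in treated gated cells and 842, 245, 474 and 359 UMIs in vehicle ones. Levels were 1.82 to 2.55 CPM in treated mice, against 430, 142, 202 and 116 CPM in vehicle mice 1 to 4. Here vehicle mouse 4, the highest for each of the other members, was the lowest of its arm. The log2 difference was -6.54 ± 0.90 (edgeR adjusted p = 0.00602), past the threshold under every alternative, with adjusted p of at most 0.0364. Cxcl13 met the low-count filter of this fit only through the vehicle mice, so its adjusted p is a description.

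Cxcl13 came from few cells. In vehicle mice 1, 2, 3 and 4, 10, 9, 10 and 15 gated cells held a UMI of it, and 1 cell gave 62.9%, 72.2%, 74.7% and 23.4% of the UMIs. Without that cell of each mouse, the vehicle levels were 161, 39.9, 51.8 and 89.5 CPM. These still lay above the 0 to 1.28 CPM left in treated mice after the same removal.

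For 6 of the 7 members the arms did not overlap in gated cells, with Icam2 the exception, and 10.1% of the 7934 genes tested were lower and 8.47% higher in treated cells without overlap. The edgeR test called 3 members lower, Prg4, Alox15 and Cxcl13, against 6.71% of all genes called lower and 6.58% called higher. Gata6, Selp, Garnl3 and Cxcl13 met the low-count filter only through the vehicle mice, as 0 of 4 treated mice reached its level of 7.95 CPM. These counts, and the adjusted p of those genes in gated cells, are therefore a description.

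**Figure D1:**
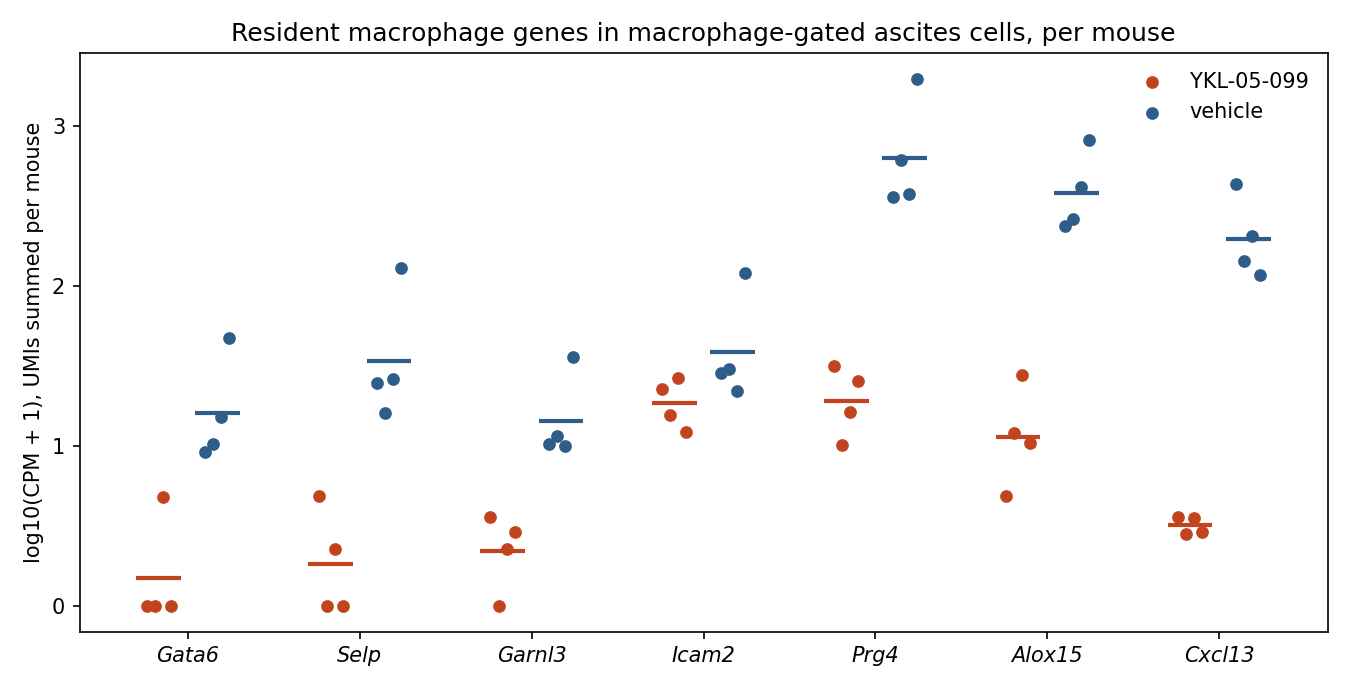
Level of each gene in macrophage-gated ascites cells, as log10(CPM + 1) of the UMIs summed per mouse, with 1 point per mouse, YKL-05-099 on the left and vehicle on the right of each pair, and a bar at the mean of the log values of 4 mice. The treated points lie below the vehicle points for every gene but Icam2, and the highest vehicle point is mouse 4 for every gene but Cxcl13.

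Over all kept cells a sum also moves with the share of macrophages, and fewer cells of a type cannot be told apart from less RNA per cell. Per mouse there were 289 to 675 treated and 485 to 873 vehicle kept cells. Prg4, Alox15 and Cxcl13 fell over all cells too, by log2 differences of -5.06 ± 0.79, -4.86 ± 0.61 and -5.34 ± 0.51 (edgeR adjusted p of 0.00682, 0.0022 and 0.000457). Selp and Garnl3, which missed the threshold in gated cells, passed it here, at -3.77 ± 0.91 and -2.52 ± 0.60 (adjusted p of 0.0311 and 0.017). Of 10732 genes tested, 11.0% were called lower and 6.67% higher. Garnl3 met the low-count filter here, too, only through the vehicle mice, with 0 of 4 treated mice at its level of 2.35 CPM, so its call is a description. Cxcl13 had 1 and Selp 2 of 4 treated mice at that level, against 4 of 4 vehicle mice. Their calls therefore rest on the vehicle mice as well and are a description. Selp lost the call in 5 of the 8 fits that leave out 1 mouse, with adjusted p up to 0.107, and Garnl3 in 3 of 8, with adjusted p up to 0.0605.

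Selp was also lower outside the gate. In those cells, Selp was at 2.08, 3.46, 0.599 and 1.57 CPM in treated mice, against 5.13, 4.59, 5.16 and 5.36 CPM in vehicle mice. A cDC2-like cluster, of conventional dendritic cells, held 4 Selp UMIs in its 97 treated cells and 35 in its 150 vehicle cells. That contrast was not tested.

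**Figure D2:**
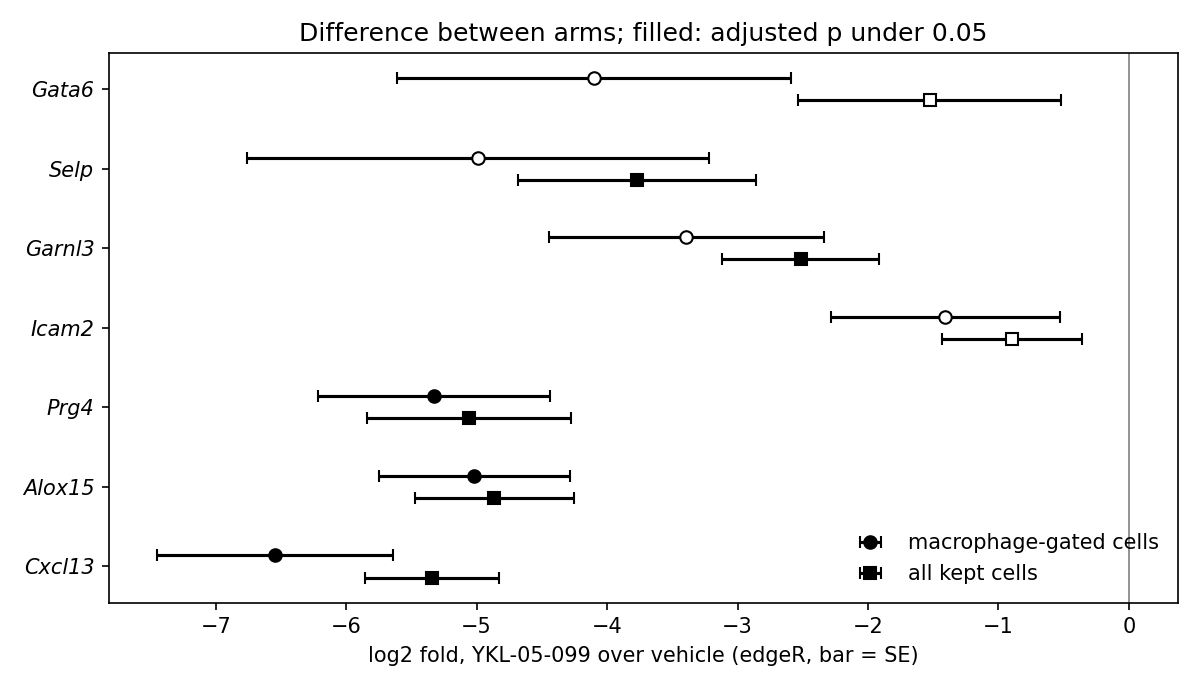
Log2 difference of each gene, YKL-05-099 over vehicle, with its standard error from the edgeR fit, in macrophage-gated cells (circles) and in all kept cells (squares), 4 mice per arm. Filled symbols are past an adjusted p of 0.05: Prg4, Alox15 and Cxcl13 in both sums, and Selp and Garnl3 over all cells.

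Gata6 behaved differently over all cells, with 1, 1, 37 and 12 UMIs in treated mice and 18, 18, 34 and 174 UMIs in vehicle mice. The arms overlapped, and the log2 difference was -1.53 ± 1.01 (edgeR adjusted p = 0.365). Most of the treated Gata6 UMIs were in 2 large cells outside the gate, with 32 UMIs in a cell of treated mouse 3 and 10 in a cell of treated mouse 4. Another such cell, of vehicle mouse 4, held 30 UMIs.

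These 3 cells had 90408, 40838 and 55341 UMIs in all, and none of them held a UMI of Selp, Prg4 or Alox15. They had 3 to 5 Garnl3 UMIs each, and 6 of 7 mesothelial markers were present at 2042 CPM summed, among them Wt1, Upk3b and Krt19. Fibroblast or stromal markers were present as well, 5 of 6 at 1661 CPM summed and mostly Dcn, as were 3 of 6 epithelial or tumour markers at 831 CPM. In the macrophage cluster richest in Gata6 the 3 lists were at 1.04, 2.71 and 1.67 CPM. Their hashtag signal was mixed, with 24 of 69, 86 of 125 and 28 of 60 hashtag UMIs from the leading tag, so their assignment to a mouse is weak. Without the cluster of 62 cells that holds them (led by Clu, Dcn and Sparc), an alternative added after seeing the data, Gata6 was -3.76 ± 0.85 over all cells (edgeR adjusted p = 0.0156).

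Shares of cells with a UMI depend on depth, so each gated cell of at least 3000 UMIs was also thinned at random to 3000 UMIs, and the thinning was repeated 200 times. This left out 184 treated and 179 vehicle cells. On average over the repeats, 1.68%, 0%, 0.873% and 0.838% of the 54, 38, 51 and 37 cells of treated mice 1 to 4 held UMIs of 2 or more of the 7 genes. In vehicle mice 1 to 4 it was 11.8%, 13.4%, 13.5% and 39.7% of 108, 97, 138 and 156 cells. A single thinning gave between 0 and 7 of the 180 treated cells and between 98 and 113 of the 499 vehicle cells.

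Without thinning, the shares were 4.24% ± 3.62 in treated and 23.5% ± 9.68 in vehicle mice (SD, n = 4 each), and the arms did not overlap either way. No p is given for this joint measure, since the 7 genes were chosen with results of these data known. Of the deeper cells, thinned to 10000 UMIs in 200 repeats, 0.752% of 119 treated cells held 3 or more of the genes, against 21.6% of 439 vehicle cells. A single thinning gave at most 1 such treated cell and at least 88 such vehicle cells. By mouse 1 to 4 the average share was 2.71%, 0%, 0% and 0% in treated mice. It was 12.2%, 13.3%, 12.8% and 39.2% in vehicle mice, so vehicle mouse 4 raised the pooled share.

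**Figure D3:**
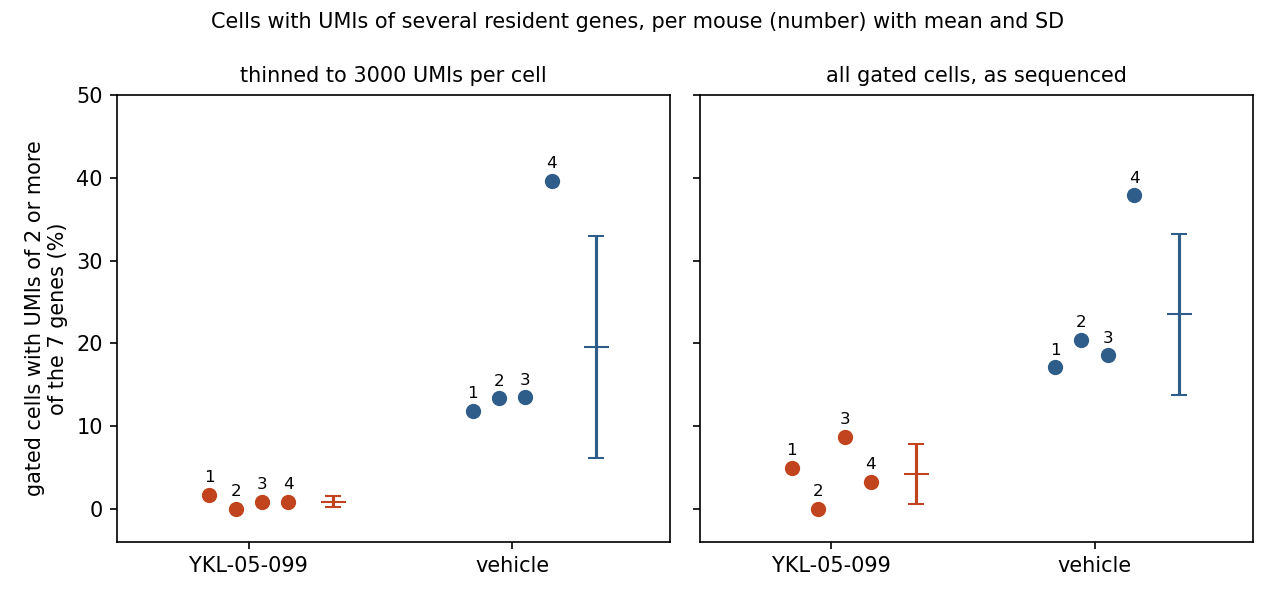
Share of macrophage-gated ascites cells with UMIs of 2 or more of the 7 genes, in percent, per mouse (numbered points) with the mean and SD of 4 mice, YKL-05-099 left and vehicle right; the left panel thins each cell to 3000 UMIs and averages 200 repeats. Thinned, treated mice are at 0% to 1.68% and vehicle mice at 11.8% to 39.7%.

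The genes shared cells in vehicle mice. Among 439 gated vehicle cells thinned to 10000 UMIs, Gata6 was found in 50.2 on average over the 200 repeats, and 97.7% of those also held Prg4, against 22.4% of the cells without Gata6. Alox15 was in 96.3% of the Gata6 cells and 20.4% of the others, and Selp in 81.4% of the Gata6 cells and 9.75% of the others. Of the Cxcl13 cells, 36.6% held Gata6 and 81.1% held Prg4. Vehicle mouse 4 weighs most here, as it held 43 of the 68 vehicle gated cells with a Gata6 UMI before thinning. Cells of 1 mouse are not independent, and these overlaps carry no test.

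Clustering all kept ascites cells gave 16 clusters, and the members' UMIs lay mostly in 1 of them. The 7 genes took part in the clustering, so their levels across clusters are a description. This macrophage-like cluster of 240 cells, led by Prg4, Alox15 and Cxcl13, held 239 vehicle cells and 1 treated cell. It made up 34.8%, 28.6%, 27.5% and 45.1% of the gated cells of vehicle mice 1 to 4. Of the vehicle gated UMIs it held 99.5% for Gata6, 97.9% for Selp, 95.7% for Garnl3, 91.5% for Icam2, 99.5% for Prg4, 99.5% for Alox15 and 99.4% for Cxcl13.

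Outside that cluster, the gated cells of both arms held little of these genes. The remaining 363 treated and 442 vehicle gated cells had 3 treated and 1 vehicle UMI of Gata6, and 4 treated and 11 vehicle UMIs of Selp. Prg4 was at 19.7 CPM in these treated cells and 9.32 CPM in these vehicle cells, and Alox15 at 13.2 CPM in treated and 5.45 CPM in vehicle cells. Icam2 was at 18.9 CPM in treated and 10.0 CPM in vehicle cells. Prg4, Alox15 and Icam2 were thus higher in the treated cells here, which was not tested. The clusters were made with these genes, so setting 1 aside removed the vehicle cells rich in them and almost no treated cells. In 1 treated cell lay 17 of the 35 treated Alox15 UMIs. The cluster of shallow cells gave 178 of the 363 treated and 170 of the 442 vehicle cells, so depth differed too. A further macrophage-like cluster, led by Col14a1, Nes and Fcrls, held 137 treated and 177 vehicle cells, with 25 Prg4 UMIs in treated and 15 in vehicle cells. The cluster of shallow cells was higher on this scale, with Prg4 at 111 CPM in treated and 133 CPM in vehicle cells, from 18 UMIs in treated and 20 UMIs in vehicle cells.

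**Figure D4:**
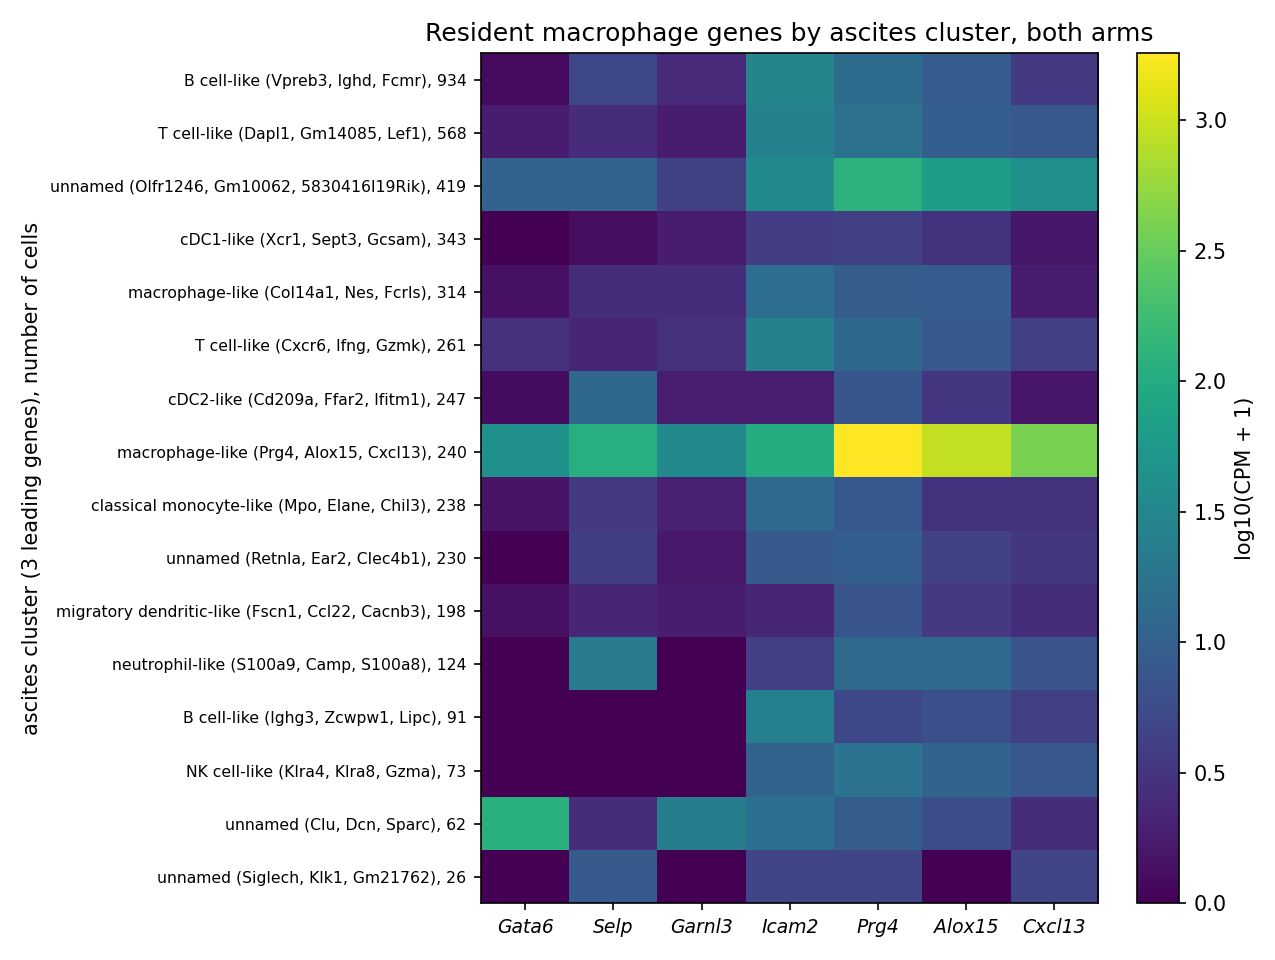
Level of each gene as log10(CPM + 1) in each of 16 ascites clusters (rows, with their 3 leading genes and number of cells, both arms together). The macrophage-like row led by Prg4, Alox15 and Cxcl13 is the brightest for 6 genes, and for Gata6 the row led by Clu, Dcn and Sparc is higher, at 117 against 43.5 CPM.

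Free RNA gives some UMIs in any droplet, and lymphocytes show its level. Prg4 UMIs were in 6.39% of 829 T cell-like cells (median 4440 UMIs, 13.8 CPM) and 5.27% of 1025 B cell-like cells (median 3919 UMIs, 11.5 CPM). Treated gated cells together held Prg4 at 20.3 CPM, Alox15 at 13.2 CPM and Cxcl13 at 2.26 CPM. T cell-like cells held Alox15 at 7.89 CPM and Cxcl13 at 5.43 CPM. The treated level of Gata6, 1.13 CPM, compares with 1.23 CPM in T cell-like cells. The treated level of Cxcl13 was below that of T cell-like and B cell-like cells (2.68 CPM in the latter) and is read as background. Gata6 lay between T cell-like cells and B cell-like cells (0.21 CPM). It had 3 UMIs in treated gated, 5 in T cell-like and 1 in B cell-like cells, too few to place it. Prg4 and Alox15 lay above both when all treated gated cells were pooled, though 1 cell held 17 of the 35 treated Alox15 UMIs. That pool includes 178 cells of the shallow cluster, whose treated cells held Prg4 at 111 CPM. Treated gated cells of at least 3000 UMIs held 22, 1, 11 and 4 Prg4 UMIs in mice 1 to 4. They held 1, 3, 19 and 2 Alox15 UMIs. Whether either gene exceeded background at such depth was not tested. Single treated cells held several UMIs of Prg4 or Alox15, with 9 of the 24 Prg4 UMIs of treated mouse 1 in 1 cell, beside the Alox15 cell of treated mouse 3. Icam2 was at 25.9 CPM in T cell-like and 28.4 CPM in B cell-like cells, which carry the protein themselves, against 19.2 CPM in treated gated cells.

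Within the cluster the vehicle mice differed. Gata6 was at 14.4, 18.0, 36.4 and 76.4 CPM in vehicle mice 1 to 4, and 12.5%, 16.3%, 23.9% and 46.8% of their 56, 43, 46 and 94 cells held a UMI of it. Selp was at 40.5, 25.9, 60.6 and 211 CPM, and Prg4 at 619, 1205, 950 and 3228 CPM. Mouse 4 was the highest for Gata6, Selp, Garnl3, Icam2, Prg4 and Alox15. It was the lowest for Cxcl13, at 188 CPM against 758, 269 and 521 CPM in mice 1 to 3.

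**Figure D5:**
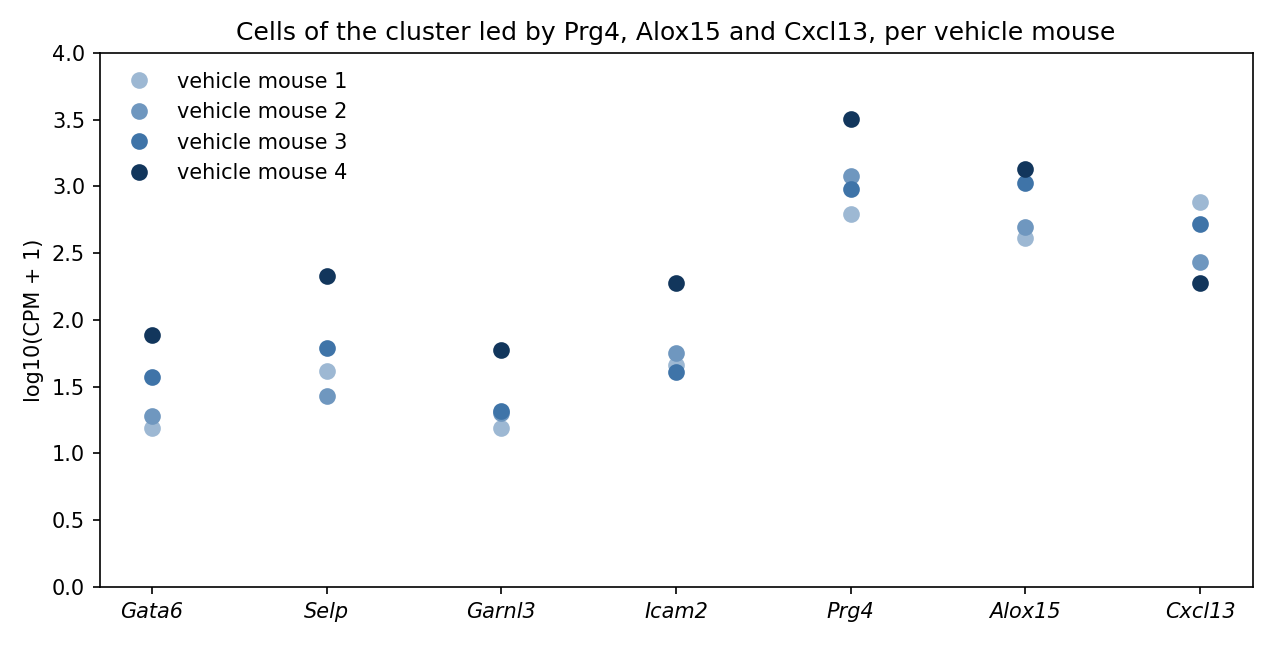
Level of each gene as log10(CPM + 1) in the cells of the cluster led by Prg4, Alox15 and Cxcl13, with 1 point per vehicle mouse. Mouse 4 (darkest) is highest for 6 genes, with Prg4 at 3228 CPM, and lowest for Cxcl13, at 188 CPM.

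The gate's edge was looked at once. Among cells with 15 to 30 C1q UMIs per 10000, just outside, Prg4 was at 18.6 CPM in 115 treated cells and 200 CPM in 136 vehicle cells. Just inside, at 30 to 60, it was at 23.8 CPM in 145 treated cells and 1928 CPM in 168 vehicle cells. Gata6 had 0 and 3 UMIs just outside and 2 and 41 just inside, in treated and vehicle cells.

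In spleen and blood, Icam2 alone of the 7 genes exceeded 4 CPM in any mouse. Gata6 had 1 UMI in treated and 1 in vehicle spleens, and 2 in treated and 0 in vehicle blood. Prg4 had 5 and 2 UMIs in treated and vehicle spleens, and 2 and 0 in blood. Icam2 was at 30.4 to 32.8 CPM in treated and 22.0 to 31.4 CPM in vehicle spleens, and at 55.7 to 65.8 CPM in treated and 51.3 to 58.6 CPM in vehicle blood. The gate held 9 treated and 38 vehicle cells in spleen and 0 in blood, so the comparison of macrophages was made in ascites.

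Across the 16 clusters, the genes whose log2(CPM + 1) was most like a member's were found by Pearson's r, as a description over points that share 1 library and differ in depth. Garnl3 was the most like Gata6 (r = 0.945), followed by Bcam (0.936) and Mst1r (0.929), out of 11669 genes. Prg4 was closest to Alox15 (0.964), Cxcl13 (0.955) and Saa3 (0.949). Selp was closest to F5, which encodes coagulation factor V (0.895), Fpr1 (0.852) and Cyp26a1 (0.835). Alox15 was close to Vsig4 (0.947). Icam2 had the least like partners, led by Nup54 (0.853).

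Other genes of the same cells were read from lists of related genes. Of 24 further genes of resident peritoneal macrophages, 22 were tested in gated cells, 7 fell and 0 rose, beside 6.71% of all genes called lower and 6.58% higher, with a median log2 difference of -1.0 against 0.01 over all genes tested. DESeq2 called 13 of the 22, and of all 7934 genes 519 lower and 460 higher. Vsig4, a complement receptor of resident macrophages, was at 6.05 ± 9.82 CPM in treated and 149 ± 64.5 CPM in vehicle mice (log2 -4.87 ± 0.83, edgeR adjusted p = 0.0132). Its lowest treated mouse was at 0 CPM and its lowest vehicle mouse at 91.7 CPM. Vsig4 thus met the low-count filter of 7.95 CPM through the vehicle mice, so its call and the list's counts are a description. Lrg1 was at 18.5 ± 3.06 CPM in treated and 213 ± 98.9 CPM in vehicle mice (log2 -3.50, adjusted p = 0.0031).

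Klf2, a transcription factor of quiescent cells that also acts in resident macrophages, was at 540 ± 89.9 CPM in treated and 1216 ± 72.0 CPM in vehicle mice (log2 -1.14, edgeR adjusted p = 8.2e-06). Adgre1, Aspa and Naip1 fell by 1.27, 1.93 and 1.21 on the log2 scale, with adjusted p of 0.0069, 0.0129 and 0.0194. The lowest treated mouse was at 2.53 CPM for Aspa and 5.11 CPM for Naip1, under the low-count filter's 7.95 CPM. The lowest vehicle mouse was at 9.28 and 15.8 CPM, so the calls of Aspa and Naip1 are a description too. Timd4, a phosphatidylserine receptor of long-lived resident macrophages, was named after its value was seen. Its log2 difference in gated cells was -1.80 (adjusted p = 0.209).

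Of 18 genes of small or monocyte-derived peritoneal macrophages, 16 were tested, 1 rose and 2 fell, with a median of -0.05. With 6.58% of all genes called higher and 6.71% lower, these counts are near the background and say nothing of the list. Ly6c2, a marker of classical monocytes, rose by 4.03 ± 0.74, to 57.2 ± 48.7 CPM in treated against 3.48 ± 1.62 CPM in vehicle mice (edgeR adjusted p = 0.0151). The highest vehicle mouse was at 5.49 CPM, under the low-count filter's 7.95 CPM. Ly6c2 thus met the filter only through the treated mice, so its call is a description. The chemokine receptors Cx3cr1 and Ccr2 fell by 1.26 and 1.21 (adjusted p of 0.000105 and 0.0032). Clec10a, Lyve1 and Mrc1 did not pass, with adjusted p of 0.146, 0.262 and 0.327.

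Of 15 genes of the retinoid pathway upstream of Gata6, 6 were tested, the receptors Rara, Rarg, Rxra and Rxrb with Dhrs3 and Tgm2. The count past edgeR's threshold was 0, with 1 gene at an unadjusted p under 0.05 (Rxrb, log2 -0.60, adjusted p = 0.0675) and 0 called by DESeq2. Of the 7 other GATA factors and cofactors, 0 passed the low-count filter in gated cells. In the list of CXCR5 and lymphoid chemokines only Ltbr was tested, at a log2 difference of 0.08 (edgeR adjusted p = 0.807).

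Beside Alox15, 12 enzymes of lipid mediator synthesis were listed and 10 tested, of which 6 fell and 1 rose, beside 6.71% of all genes called lower and 6.58% higher, with a median log2 difference of -0.80. Ptgs1, which encodes cyclooxygenase 1, was at 55.8 ± 13.2 CPM in treated and 160 ± 42.2 CPM in vehicle mice (log2 -1.50 ± 0.21, edgeR adjusted p = 0.000566). Pla2g7, Alox5, Hpgds and Tbxas1 fell by 1.13, 0.88, 0.76 and 0.49. Ltc4s, which makes leukotriene C4, rose by 0.48 ± 0.13 to 750 ± 130 CPM in treated, against 548 ± 33.1 CPM in vehicle mice (adjusted p = 0.0172).

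Of 9 selectin and ICAM adhesion genes beside Selp and Icam2, 6 were tested. Itgb2, the shared chain of LFA-1 and Mac-1, fell by 0.51 (280 ± 33.5 CPM in treated and 402 ± 99.9 CPM in vehicle mice, edgeR adjusted p = 0.0368). Itgam, the Mac-1 chain, missed the threshold at -0.54 (adjusted p = 0.0613). Selplg, the ligand of P-selectin, did too at -0.34 (adjusted p = 0.215). Icam1 and Itgal differed little, at 0.05 and -0.07 (edgeR adjusted p of 0.958 and 0.94). The remaining 1 of the 6 is not reported here.

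Markers of other cell types were summed over the gated cells, and their part in the results was not tested. Classical monocyte markers, 6 of 6 detected, stood at 683 to 929 CPM in treated and 608 to 1270 CPM in vehicle mice. B cell markers, 5 of 5 detected, stood at 29.1 to 91.6 and 25.0 to 50.3 CPM, and T cell markers, 7 of 7 detected, at 10.1 to 27.3 and 8.10 to 10.0 CPM, in treated and vehicle mice. Mast cell markers (4 of 5 detected, Mcpt8 at 0) stood at 0 to 989 CPM in treated and 2.26 to 2.90 CPM in vehicle mice. Fibroblast markers (3 of 6 detected, Pdgfra, Col3a1 and Lum at 0) stood at 20.4 to 61.7 CPM in treated and 4.69 to 9.69 CPM in vehicle mice. Col1a1 was at 0 in treated cells too, so the treated sum came from Dcn and Pdpn. Pdpn was also among the leading genes of the macrophage-like cluster led by Col14a1, Nes and Fcrls. Migratory dendritic markers (5 of 5 detected) stood at 20.2 to 46.7 CPM in treated and 16.2 to 19.7 CPM in vehicle mice. Neither of these sums overlapped between the arms. Erythroid transcripts (4 of 4 detected) stood at 40.1 to 7017 CPM in treated and 28.6 to 530 CPM in vehicle mice. Endothelial markers, which bear on Selp and Icam2, were 3 of 6 detected at 1.28 to 3.79 CPM in treated and 0.43 to 1.02 CPM in vehicle mice, with Tek, Emcn and Cldn5 at 0. Platelet markers, which bear on Selp, were 5 of 7 detected, at 1177 to 1875 and 1051 to 1780 CPM, with Gp1bb and Tubb1 at 0 and Gp9 and Gp1ba at 0 in vehicle cells. Mesothelial markers were 4 of 7 detected, at 0 to 1.87 CPM in treated and 0.51 to 1.74 CPM in vehicle mice, with Krt19, Gpm6a and Muc16 at 0.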

How the data were processed

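Per the submitters' processing notes, the authors made the deposited UMI counts with Cell Ranger 6.1.1 on mm10, and the counts are raw, per gene and cell, with hashtag counts in the same matrix. The deposited text notes that accompany the files (other content, with no measurement) gave the hashtag of each mouse. Whether counting used strand is not given in the sources used here. A 3' assay sees only transcript ends, and free RNA adds UMIs to every droplet.

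Quality limits were 200 genes and 500 UMIs per cell as minimum and 10% mitochondrial UMIs as maximum. The remaining cells were assigned to mice with Seurat 5.3.0 HTODemux (quantile 0.99), and only single-hashtag cells were kept, which removes doublets between mice, and no caller was run for doublets within a mouse. The gate was 30 C1q UMIs per 10000. UMIs were summed per mouse and tested over all genes with edgeR 4.0.16 (quasi-likelihood, TMM, filterByExpr, Benjamini-Hochberg adjustment, threshold 0.05) under R 4.3.3 with limma 3.58.1, with no covariate between arms and the mouse as a block between gated and other cells. DESeq2 1.42.0 was an alternative, and other alternatives changed the gate, hashtag rule, filters, scaling and mice included. To compare cells at equal depth, UMIs were drawn without replacement to a fixed total in 200 repeats and shares averaged, since single draws differed. CPM is a description, per 1000000 UMIs of the summed cells. Exact permutation tests were two-sided, with a smallest possible p of 0.0286 for 4 against 4 mice. Clusters came from scanpy 1.11.5 with leidenalg 0.10.2 (Leiden resolution 1, 30 components). Intervals and zero limits cover counting error only.

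The 7 genes and the gene lists were chosen with earlier results of these data known. Besides the 7 genes, the text names up to 6 genes per list, those with the smallest edgeR p in gated cells, whether called or not, and 1 of these is not reported here. On simulated data with the gated comparison's 7934 genes, the test recovered 70.8% of 2-fold and 98.9% of 4-fold changes, and 6.55% of the called genes were false. The simulated spread between mice followed the trend over all genes, so these rates do not cover genes with a larger spread. Same-numbered mice of the arms were not paired.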

Additional observations from a re-analysis of the deposited data

Results flagged for a closer look

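In 12 of 34 groups of 4 mice that were checked, the highest or lowest mouse lay farther from its nearest neighbour than Dixon's 95% limit allows, where chance gives about 1 in 20 groups. In 10 of the 12 the mouse was vehicle mouse 4, so these are not separate observations.

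In gated cells, vehicle mouse 4 had 46.2 CPM of Gata6 where the next vehicle mouse had 14.1 CPM, and 128 CPM of Selp against 25.2 CPM. It had 34.6 CPM of Garnl3 against 10.4 CPM, 118 CPM of Icam2 against 29.0 CPM, and 1943 CPM of Prg4 against 611 CPM in the next vehicle mouse. Over all kept cells it had 54.1 CPM of Selp against 14.1 CPM, 15.9 CPM of Garnl3 against 4.86 CPM, and 56.6 CPM of Icam2 against 19.2 CPM. Its share of gated cells with 2 or more of the genes was 39.7% at equal depth, with the next vehicle mouse at 13.5%, and 37.9% without thinning, with the next at 20.4%.

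In treated mice, Gata6 in gated cells was at 3.79 CPM in mouse 3 and at 0 in the other 3 mice. Garnl3 over all kept cells was lowest in treated mouse 2, at 0.438 CPM, with the next treated mouse at 1.44 CPM.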

How the results depend on the processing

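No direction reversed in any alternative. Alox15 and Cxcl13 stayed past the threshold in 19 of 19 alternatives in gated cells, Prg4 in 18 of 19, and all 3 in 17 of 17 over all cells. In the main fits, of gated cells and of all cells, Cxcl13 met the low-count filter through the vehicle mice, so both of its counts are a description. Leaving out any 1 vehicle mouse took Gata6 and Garnl3 below the low-count filter, so they were not tested there. The number of genes called in gated cells was 1054 and became 2070 under a hashtag rule based on the leading tag's share alone (1009 higher, 1061 lower). It ranged from 737 to 1078 when 1 mouse was left out, and over all cells from 1343 to 1884. The difference in the share of gated cells became -9.56 percentage points where both hashtag rules had to hold, -9.14 with a gate of 60, and -13.4 among cells of at least 3000 UMIs, which was added after seeing the data. It ranged from -10.00 to -5.27 when 1 mouse was left out. The difference in the share with 2 or more of the genes ranged from -21.3 to -12.0 percentage points when 1 mouse was left out, where no exact test can go below p = 0.0571. The causes were not tested.

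With the mouse number as a replicate block, edgeR called 958 genes in gated cells and 2405 over all cells. Numbers did not mark pairs, with correlations of -0.021, 0.024, -0.06 and -0.068 between same-numbered mice, and 1 of 4 mice was closest to its own number. That fit put Gata6, Selp and Garnl3 past the threshold in gated cells (edgeR adjusted p of 0.001, 4.6e-05 and 0.000981). Gata6, Selp and Garnl3 had 3 to 4 UMIs each and Cxcl13 6 UMIs over all treated gated cells, so their treated levels are known only coarsely.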
